A study of Bos taurus with 4 samples.

Results

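TLR2, TLR4 and CD14 encode cell-surface proteins by which mammals sense bacteria, and their transcripts were compared between bovine mammary tissue and bovine lymphocytes. The 3 genes were chosen for their role in bacterial recognition, which bears on mastitis, at a time when earlier results of these data were known. They were taken by Ensembl identifier: ENSBTAG00000008008 for TLR2, ENSBTAG00000006240 for TLR4 and ENSBTAG00000015032 for CD14. All 3 had a row among the 24616 gene rows of the deposited table. The pairing of identifier and gene was given with the gene set, and the table itself holds no gene names.

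Toll-like receptor 2 recognises lipoproteins and related cell-wall molecules, which are prominent in Gram-positive bacteria such as Staphylococcus aureus, and acts as a dimer with TLR1 or TLR6. Toll-like receptor 4 recognises lipopolysaccharide of Gram-negative bacteria such as Escherichia coli, together with its partner protein MD-2 (gene LY96). CD14 has no signalling domain of its own. It binds lipopolysaccharide, hands it to the TLR4 complex, also serves TLR2 ligands, and is the classical surface marker of monocytes and macrophages. In the udder these sensors are carried by resident and recruited macrophages and neutrophils, and also by the epithelium, and their signal through MYD88 and NF-kappaB starts the inflammatory response of mastitis. In blood, TLR4 and CD14 are best known from monocytes.

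The series holds 4 RNA sequencing libraries from cattle whose breed is given as "Hostein", 2 from mammary tissue of females and 2 from lymphocytes of males. Tissue and sex therefore cannot be told apart. The labels name no treatment, infection, genotype, age or stage of lactation, and do not say how the lymphocytes were obtained or purified. The titles of both mammary libraries end in "dup", a tag the labels do not explain. The titles of the 4 libraries carry different numbers, but whether each library is a separate animal is not stated. The p-values therefore rest only on differences between the 2 libraries of a source, which could be technical. In some of the fits below, that spread is pooled over many rows. Levels are FPKM, fragments a fragment count scaled to transcript length and to the size of the mapped library, so levels of different genes can be set side by side. The FPKM summed to between 828745 and 1536180 in a library. Read depth is unknown, so no counting interval is given.

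The labelled cell types could not be checked against their defining markers. Of the 15 other genes listed for bacterial sensing (TLR1, TLR5, TLR6, TLR10, LY96, LBP, MYD88, TIRAP, TICAM1, TICAM2, IRAK1, IRAK4, TRAF6, NFKB1 and RELA), 0 could be paired with a row. The RefSeq gene table at hand lists 14 of these 15 symbols and carries no Ensembl identifiers. The same held for the 4 nucleic acid sensing receptors TLR3, TLR7, TLR8 and TLR9, and for the 9 myeloid, 5 T cell, 4 B cell and 5 mammary epithelial markers. How many monocytes, macrophages or neutrophils each library held was therefore not tested. In bulk samples of this kind, fewer cells of a type and less RNA per cell cannot be told apart. In the RefSeq annotation of assembly ARS-UCD2.0, all 3 genes are protein coding: TLR2 lies between RNF175 and TMEM131L, TLR4 between TRIM32 and BRINP1, and CD14 next to TMCO6. The deposited values were made on assembly UMD3.1, so no coordinates are given.

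CD14 was the sensor with the highest level in mammary tissue and the lowest in lymphocytes. Mammary replicates 1 and 2 held 15.9 and 20.5 FPKM, and lymphocyte replicates 1 and 2 held 2.22 and 4.99 FPKM. Both mammary libraries were above both lymphocyte libraries, with no overlap. The group means were 18.2 ± 3.31 FPKM in mammary tissue and 3.60 ± 1.96 FPKM in lymphocytes (SD, n = 2 each), a ratio of 5.05. Of the 12311 rows tested, 13.7% were likewise higher in both mammary libraries than in both lymphocyte libraries.

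TLR2 showed the opposite order. Its level was 5.34 FPKM in mammary replicate 1 and 6.41 FPKM in mammary replicate 2, against 11.8 FPKM in lymphocyte replicate 1 and 13.2 FPKM in lymphocyte replicate 2. The replicates of each source lay close together and the lymphocyte libraries were higher, again with no overlap. The means were 5.88 ± 0.757 FPKM in mammary tissue and 12.5 ± 1.02 FPKM in lymphocytes (SD, n = 2 each), a ratio of 2.13 in favour of lymphocytes. That order is common in this table: 52.7% of the tested rows were higher in both lymphocyte libraries than in both mammary libraries.

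TLR4 varied widely between replicates, by 2.55-fold in mammary tissue and 2.86-fold in lymphocytes, against a ratio of 2.18 between the source means. The mammary values were 14.3 FPKM in replicate 1 and 5.62 FPKM in replicate 2, and the lymphocyte values 2.37 FPKM in replicate 1 and 6.78 FPKM in replicate 2. The highest value was mammary and the lowest was a lymphocyte value, but mammary replicate 2 lay below lymphocyte replicate 2, so the groups overlapped. The means were 9.98 ± 6.17 FPKM in mammary tissue and 4.57 ± 3.12 FPKM in lymphocytes (SD, n = 2 each).

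**Figure D1:**
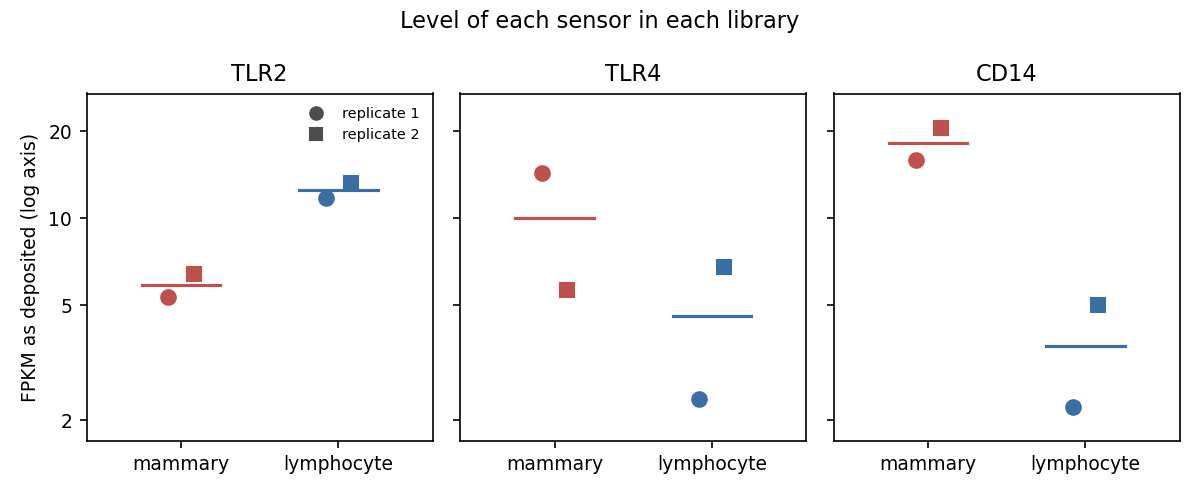
FPKM as deposited (log axis) of TLR2, TLR4 and CD14 in the 2 mammary (red) and 2 lymphocyte (blue) libraries; circles are replicate 1, squares replicate 2 and bars the group means. CD14 is higher in both mammary libraries (15.9 and 20.5 against 2.22 and 4.99), TLR2 is higher in both lymphocyte libraries, and TLR4 overlaps between the sources.

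Within a library, the order of the sensors differed between the sources. In mammary replicate 1, CD14 and TLR4 were close (15.9 and 14.3 FPKM) and TLR2 was well below both. In mammary replicate 2, CD14 stood above TLR2 and TLR4, which were close to each other (6.41 and 5.62 FPKM). In both lymphocyte libraries TLR2 was highest, TLR4 next and CD14 lowest, with TLR4 and CD14 close to each other. Compared within libraries, TLR2 over TLR4 in mammary tissue had a mean log2 ratio of -0.62 (SD 1.14), with opposite orders in the 2 replicates. In lymphocytes CD14 over TLR4 had a mean log2 ratio of -0.27 (SD 0.24), with CD14 slightly lower in both libraries. Whether these genes differ within a source was not tested.

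A test across all genes was made with limma's moderated test on log2(FPKM + 1), with tissue as the only term, on the 12311 rows that reached 1 FPKM in 2 or more libraries. All 3 sensors passed that filter. On the values as deposited, 0 of the 3 sensors passed an adjusted p of 0.05 by limma, against 19.2% of all tested rows, and 1 of them, CD14, had an unadjusted p below 0.05. CD14 differed by 2.12 on the log2 scale (SE 0.85, 95% interval 0.44 to 3.79, limma adjusted p = 0.064), and 6.30% of the tested rows had a difference further toward mammary tissue. TLR4 differed by 0.98 (interval -0.68 to 2.63, limma adjusted p = 0.42) and TLR2 by -0.98 (interval -2.65 to 0.70, limma adjusted p = 0.43). These intervals are wide enough to hold a difference of more than 4-fold for TLR4 toward mammary tissue and for TLR2 toward lymphocytes. In this fit the test used a spread pooled over rows of like level, not the spread of the gene itself.

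The replicates of a source were also offset as a whole, and the sensors did not all follow that offset. In mammary tissue the median tested row differed by -1.05 in log2(FPKM + 1), replicate 2 minus replicate 1, and only 6.67% of rows were higher in replicate 2. TLR4 followed the median row, with a difference of -1.21. TLR2 and CD14 were among the few rows that were higher in replicate 2, by 0.22 and 0.35, and only 4.70% and 3.95% of rows lay further in that direction. In lymphocytes the median row was higher in replicate 2 by 0.40. There TLR2 lay at 0.15, whereas CD14 and TLR4 were higher in replicate 2 by 0.90 and 1.21, with 9.32% and 3.84% of rows further in that direction.

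**Figure D2:**
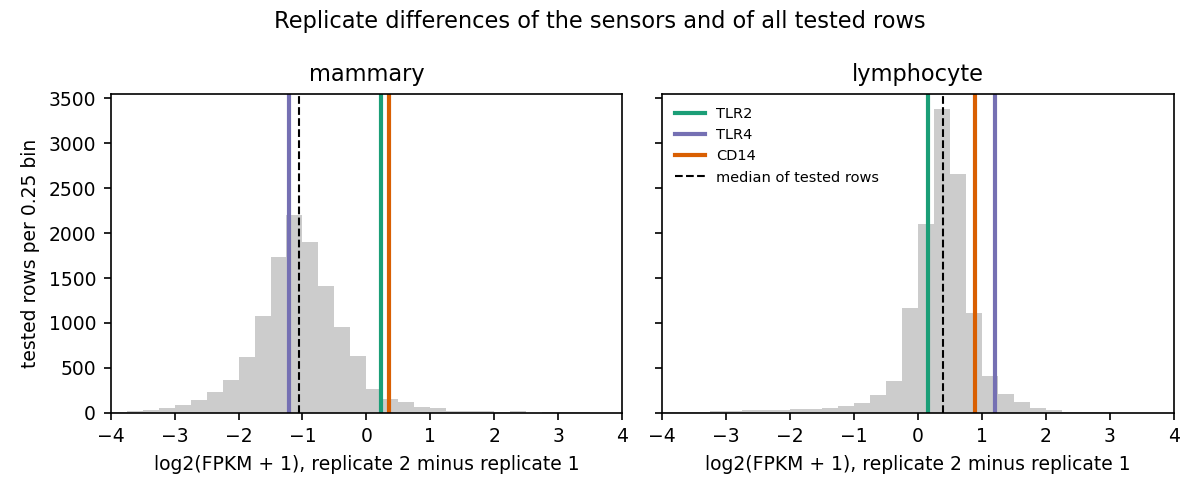
Difference in log2(FPKM + 1) between replicate 2 and replicate 1 for all 12311 tested rows (grey histogram, rows per bin) in mammary tissue and lymphocytes, with TLR2, TLR4 and CD14 as coloured lines and the median row dashed; 52 mammary and 6 lymphocyte rows lie beyond the axis at 4. In mammary tissue TLR4 (-1.21) is beside the median row (-1.05), whereas TLR2 (0.22) and CD14 (0.35) lie in the right tail.

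The comparison between sources depended on how libraries were scaled, and the calls of all 3 sensors changed with it. Median-of-ratios scaling, which sets each library's typical row to a common level, raised mammary replicate 2 relative to the others (each library is divided by its factor, 0.435 here, against 1.13 for mammary replicate 1, 1.21 for lymphocyte replicate 1 and 1.64 for lymphocyte replicate 2). After it, mammary replicates 1 and 2 held 12.7 and 12.9 scaled FPKM of TLR4, against 1.96 and 4.14 for lymphocyte replicates 1 and 2. The mammary libraries were then close to each other and above both lymphocyte libraries, as 34.1% of tested rows were, while 36.6% showed the opposite. The difference was 1.82 on the log2 scale, against 0.98 as deposited, and its SE was 0.34, against 0.85 as deposited. These SEs are not of the same kind. As deposited the spread was wholly pooled over rows, whereas in the scaled fit the spread of TLR4 itself also counted. The interval was 0.90 to 2.74 (limma adjusted p = 0.032), and TLR4 passed the test. With 1 library left out under this scaling, the differences were 1.81 and 1.91 without mammary replicates 1 and 2. They were 1.36 and 2.14 without lymphocyte replicates 1 and 2. Each such fit leaves 1 library in a source, so whether the TLR4 call would hold cannot be read from it.

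CD14 was spread further apart in mammary tissue by the same scaling. Mammary replicates 1 and 2 held 14.0 and 47.2 scaled FPKM, and lymphocyte replicates 1 and 2 held 1.84 and 3.05. Both mammary libraries remained above both lymphocyte libraries. The difference was 2.99 on the log2 scale (SE 0.64, interval 1.26 to 4.71, limma adjusted p = 0.043), and CD14 passed the test. With 1 library left out, the CD14 difference was 3.79 and 2.26 without mammary replicates 1 and 2. It was 2.67 and 3.15 without lymphocyte replicates 1 and 2. Those fits, with 1 library in a source, cannot show whether the CD14 call would hold. Under this scaling 20.6% of all tested rows passed, 12.1% as higher in mammary tissue and 8.46% as higher in lymphocytes; as deposited, the shares were 8.54% and 10.7%. By that background the 2 calls are not rare ones, but 4.82% of rows differed more than CD14 toward mammary tissue and 11.4% more than TLR4.

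The lower TLR2 level of mammary tissue was not kept under that scaling. Its scaled FPKM was 4.72 in mammary replicate 1 and 14.7 in mammary replicate 2, on either side of the 9.77 and 8.08 of lymphocyte replicates 1 and 2. The groups overlapped, and the difference was -0.06 on the log2 scale (SE 0.55, interval -1.54 to 1.42, limma adjusted p = 0.95). The interval still allows a difference of more than 2-fold either way. Relative to the median tested row of the same fit, the TLR2 difference was -0.17 as deposited and -0.04 after scaling, that of TLR4 was 1.79 and 1.84, and that of CD14 was 2.93 and 3.01.

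Quantile normalization gave the same calls as median-of-ratios scaling for these genes. CD14 differed by 2.81 (limma adjusted p = 0.033), TLR4 by 1.73 (limma adjusted p = 0.032) and TLR2 by -0.17 (limma adjusted p = 0.84), with 24.2% of all rows called, 11.2% as higher in mammary tissue and 13.0% as higher in lymphocytes. Bringing all libraries to the same FPKM total gave another set of calls. There TLR2 passed as lower in mammary tissue, at -1.60 (limma adjusted p = 0.046), whereas CD14 at 1.52 (limma adjusted p = 0.057) and TLR4 at 0.39 (limma adjusted p = 0.62) did not. That scaling called 54.6% of all rows, 45.8% as higher in lymphocytes and 8.72% as higher in mammary tissue, so the TLR2 call went with the larger share. As in the fit of the deposited values, its test used a spread pooled over rows of like level. CD14 kept both mammary libraries above both lymphocyte libraries under all 4 scalings. With the common total, 10.9% of rows had both mammary libraries higher and 73.8% both lymphocyte libraries higher. TLR4 had both mammary libraries higher after median-of-ratios and quantile scaling, and TLR2 had both lymphocyte libraries higher as deposited and with the common total.

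**Figure D3:**
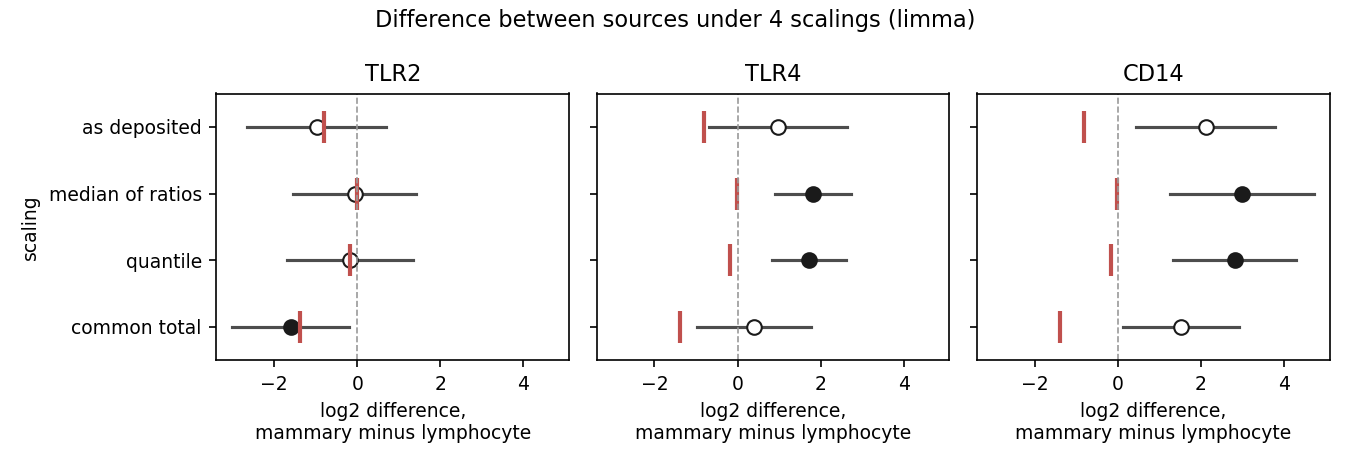
Log2 difference between mammary tissue and lymphocytes (x axis) with its 95% interval for each sensor under 4 scalings (y axis); filled circles passed an adjusted p of 0.05 by limma, open circles did not, and red ticks mark the median tested row. CD14 lies right of 0 under each scaling (1.52 to 2.99), TLR2 follows the median row, and TLR4 passes under the 2 scalings whose median row is nearest to 0.

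The rank of a gene inside its own library needs no scaling. CD14 was above 77.7% and 92.9% of the tested rows in mammary replicates 1 and 2, against 22.9% and 33.0% in lymphocyte replicates 1 and 2. TLR4 was above 75.2% and 73.3% of rows in mammary tissue and above 24.2% and 41.1% in lymphocytes, so by rank the mammary libraries were nearly alike and did not overlap with the lymphocyte libraries. TLR2 was above 40.5% and 76.5% of rows in mammary tissue and above 66.7% and 61.6% in lymphocytes, and overlapped. By rank, as after quantile normalization, 29.2% of tested rows were higher in both mammary libraries, as CD14 and TLR4 were, and 42.9% in both lymphocyte libraries.

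The ratio of 2 sensors inside 1 library is left unchanged by any scaling that uses 1 factor per library, though not by quantile normalization. It was taken from the values as deposited and separated the sources most widely for CD14 and TLR2. CD14 stood at 2.97 times TLR2 in mammary replicate 1 and at 3.20 times in mammary replicate 2. In lymphocyte replicates 1 and 2 the ratio was 0.188 and 0.377, so that TLR2 stood at 5.32 and 2.65 times CD14. The mammary replicates were nearly identical in this ratio, and the 2 closest libraries of different sources were 7.87-fold apart. How often other pairs of genes separate the sources as widely was not tested. The mean log2 ratio was 1.62 ± 0.08 in mammary tissue and -1.91 ± 0.71 in lymphocytes (SD, n = 2 each), a difference of 3.53.

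The ratios that involve TLR4 varied more between the mammary replicates. For mammary replicates 1 and 2, TLR2 over TLR4 was 0.373 and 1.14; for lymphocyte replicates 1 and 2 it was 4.98 and 1.95, without overlap. The difference of the mean log2 ratios was -2.26, with an SD of 1.14 in mammary tissue and 0.95 in lymphocytes. CD14 over TLR4 was 1.11 and 3.65 in the mammary libraries and 0.935 and 0.736 in the lymphocyte libraries, in the order of their numbers. Its difference of 1.28 on the log2 scale was about the size of the mammary SD of 1.22, and was 0.41 without mammary replicate 2. The closest libraries of the 2 sources were only 1.18-fold apart in that ratio. On the log2 scale, CD14 over TLR2 equals CD14 over TLR4 minus TLR2 over TLR4. The differences of these 2 ratios had opposite signs, so the wider separation of CD14 over TLR2 follows from them. With 2 libraries per source the smallest two-sided p of an exact permutation test is 0.33, and each of the 3 ratios gave that value (0.33 after Benjamini-Hochberg adjustment over the 3), so none could pass.

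**Figure D4:**
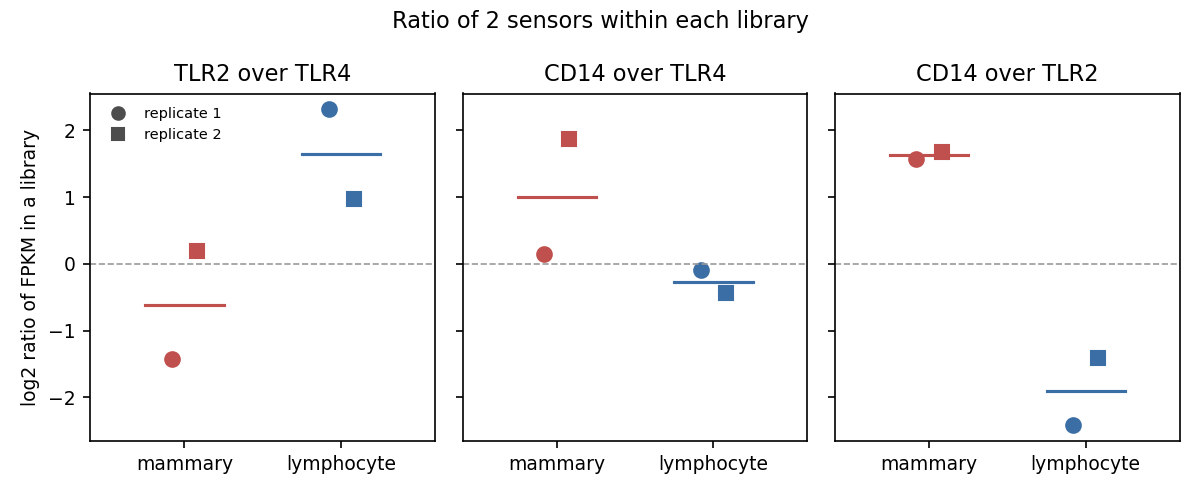
Log2 ratio of the FPKM of 2 sensors within each library (y axis; 0 is an equal level) for the 2 mammary (red) and 2 lymphocyte (blue) libraries; circles are replicate 1, squares replicate 2 and bars the group means. CD14 over TLR2 is 1.57 and 1.68 in mammary tissue and -2.41 and -1.41 in lymphocytes, the widest separation of the 3 ratios.

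The rows whose pattern was most like each sensor were found by the Euclidean distance of log2(FPKM + 1) over the 4 libraries, among the tested rows. The nearest to TLR4 was ENSBTAG00000042586, at a distance of 0.12, with 15.2 and 5.94 FPKM in mammary tissue and 2.34 and 6.47 FPKM in lymphocytes (replicates 1 and 2 of each). The nearest to TLR2 was ENSBTAG00000012241, at 0.13, with 5.01 and 6.34 FPKM in mammary tissue and 12.6 and 12.7 FPKM in lymphocytes. The nearest to CD14 was ENSBTAG00000021678, at 0.43, with 21.4 and 21.8 FPKM in mammary tissue and 2.36 and 4.93 FPKM in lymphocytes. CD14 had the fewest rows of like pattern: 19 lay within a distance of 1, against 105 for TLR4 and 458 for TLR2. With only 4 libraries, such likeness is a description of these values.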

How the data were processed

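The authors deposited 1 table of FPKM values per Ensembl gene identifier for 4 libraries of paired reads of 150 bp. The submitters' processing notes name Trimmomatic 0.39, STAR, Cufflinks and the build UMD3.1. Settings, annotation release, strand and treatment of multi-mapping reads were not given in the sources used here. Each column was matched to a sample by its title, and replicates were numbered in accession order. FPKM were compared as log2(FPKM + 1) with limma 3.58.1 in R 4.3.3 (two-sided, mean-variance trend, Benjamini-Hochberg adjustment over the 12311 rows that reached 1 FPKM in 2 or more libraries). Median-of-ratios factors used all rows above 0 in every library. Scaling, pseudocount, filter, trend and left-out libraries were varied, and the step was tested on simulated data. The genes named were the 3 sensors, listed pathway genes that could be paired with a row (0), and the row nearest in pattern to each sensor. The members and lists were chosen with earlier results of these data known. Lists of stromal and vessel markers (4) and red cell markers (2) could not be paired either. No sequences of the 3 genes were used here.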

Additional observations from a re-analysis of the deposited data

How the results depend on the processing

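CD14 and TLR4 stayed higher in mammary tissue under all 18 alternatives, and TLR2 lower under 16 of 18. At a given scaling, changing the filter or the trend could not alter these differences, only their p-values. As deposited, leaving out 1 library could not reverse CD14, TLR2 or any sensor ratio, whose groups did not overlap. The direction kept in such alternatives was therefore fixed in advance. CD14 passed under 5 alternatives (limma adjusted p 0.029 to 0.83 over all 18), TLR4 under 3 (0.032 to 0.98) and TLR2 under 1 (0.046 to 0.99). Values that crossed the threshold were 2.99 and 2.81 for CD14 and 1.82 and 1.73 for TLR4 after median-of-ratios and quantile scaling, 2.12 for CD14 without the trend, and -1.60 for TLR2 after rescaling to a common total. Under median-of-ratios scaling without the trend, an alternative chosen after seeing the data, CD14 (2.99) and TLR4 (1.82) passed too; under that scaling without the filter, also chosen after seeing the data, neither passed (2.99 and 1.82, limma adjusted p = 0.072 and 0.058). TLR2 turned to 0.65 under median-of-ratios scaling without mammary replicate 1 and to 0.015 without lymphocyte replicate 1. The 5 passing alternatives of CD14 include that scaling without mammary replicate 1 (3.79), a fit with 1 mammary library. Whether a sensor passed with a library left out was not read as a result, because 1 source then has 1 library. With a library left out, the spread comes from the other source's replicates alone. As deposited, leaving out each library gave -1.09 to -0.86 for TLR2, 0.37 to 1.58 for TLR4 and 1.67 to 2.57 for CD14. TLR4 was near its lower value without mammary replicate 1 and without lymphocyte replicate 1 (both 0.37). The ratios ranged from -3.06 to -1.45 (TLR2 over TLR4), 0.41 to 2.14 (CD14 over TLR4) and 3.03 to 4.04 (CD14 over TLR2).

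The 2363 rows called as deposited became 6718 after rescaling to a common total, 1370 with a 5 FPKM filter, 5 without a filter, and 102 to 3828 with a library left out. Under median-of-ratios scaling 1478 were called without mammary replicate 2 and 0 by limma without lymphocyte replicate 1 or 2 (2872 and 3057 rows at an unadjusted p below 0.05). No paired analysis was possible because the titles carry 4 different numbers. Depth is unknown, so how counting error limits these levels cannot be given.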
